A study of Mus musculus with 6 samples.

Results

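Small nuclear RNAs (snRNAs) are short, abundant, structured RNAs of the nucleus, and the short reads cut from them were examined here in the sensorimotor cortex of mice after spinal cord injury. A distinct read sequence of 17 to 34 nt was taken as an snRNA fragment when it lay, sense and with no mismatch, in an annotated transcript of the snRNA biotype and in no miRNA hairpin, rRNA, mitochondrial tRNA, snoRNA or scaRNA. This gave 5394 of the 2543604 distinct sequences in the series and 202944 of 115958638 reads, or 0.175% of all reads. The 1383 annotated mouse snRNA copies, of which 11 carry a gene name, were assigned to 10 types by alignment. U7, which has the same biotype, is not part of the spliceosome but of the machinery that trims histone messenger RNAs, and is given separately.

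All 6 libraries came from male C57BL/6J mice of postnatal day 90, and the tissue was taken 7 days after surgery. In the 3 SCI mice the cervical spinal cord was cut through completely, and in the 3 control mice it was exposed and left intact. Small RNA was sequenced from the cortex of individual animals, with adapters that carry degenerate bases. The SCI libraries held 14628518, 23408028 and 19918863 reads and the control libraries 22937179, 10585062 and 24480988 reads. Reads in miRNA hairpins made up 73.3% to 78.6% of the SCI libraries and 78.5% to 79.4% of the control libraries. Reads of 30 to 34 nt made up 0.584%, 3.66% and 2.31% of SCI libraries 1, 2 and 3, against 1.33%, 0.611% and 0.543% of control libraries 1, 2 and 3. SCI library 2 thus had the largest share of long reads, and control library 1 the largest among the controls. Hairpins of neuronal miRNAs (the Mir124a, Mir9, Mir128, Mir138 and Mir132 families) were abundant in every library, at 190538, 177141 and 171542 reads per 1000000 reads of the library (RPM) in SCI and 209480, 194916 and 199108 in control. Mir122, of liver, gave 3.76 to 5.26 RPM in SCI and 2.66 to 5.10 in control, and Mir451a, of red blood cells, gave 291 to 775 in SCI and 331 to 546 in control. The neuronal list was lower in each SCI library than in each control library, and its part in the results that follow was not tested.

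In the major spliceosome, U1 pairs with the 5′ splice site and U2 with the branch site of an intron, and U4, U5 and U6 join as one particle in which U6 is held by U4 until activation and U5 aligns the exon ends. U11, U12, U4atac and U6atac, with U5, do the same work for a rare class of introns. All but U6 and U6atac bind a ring of Sm proteins at a short uridine-rich Sm motif, which in U1, U4 and U5 is followed by a stem-loop at the 3′ end. U6 keeps the uridine tail of its transcription by RNA polymerase III. In these bulk samples, fewer cells of a type and less RNA per cell cannot be told apart.

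Most reads came from the 3′ part of their RNA, and main sequences of several types are printed here, 5′ to 3′ as DNA letters, from the deposited reads. The first 4 are the U5 fragment that runs from position 90, the commonest start, to the last base, 116, in each of 4 gene copies, with capitals at the bases that differ between the copies:
U5 Rnu5g: tttttgaggCcTtgTCTTGAcaAggct
U5 Gm25099: tttttgaggTcCtgCTCGTGcaGggct
U5 Gm25313: tttttgaggCcTtgTTTCGGcaAggct
U5 Gm24871: tttttgaggCcTtgCTTTAGcaAggct
A longer form of the Rnu5g fragment starts at position 86 and holds the whole Sm motif, here in capitals:
U5 Rnu5g with the Sm motif: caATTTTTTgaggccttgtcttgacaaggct
The short and the long U1 fragment share their 3′ end, in capitals, and their balance differed between the groups:
U1 short: CGTTCGCGCTCTCCCCTG
U1 long: gtgggggactgCGTTCGCGCTCTCCCCTG
The most abundant U2 fragment occurred without and with a last adenosine (capital) that the gene copy does not have at that place:
U2 without A: gtacctccaggaacggtgcacc
U2 with A: gtacctccaggaacggtgcaccA
The commonest U4 fragment ran 3 bases (capitals) past the end of the annotated copies:
U4: ttttgacagtctctacggagaCTG
U12, the most abundant minor type, and U7 gave these most abundant fragments, with no capitals:
U12: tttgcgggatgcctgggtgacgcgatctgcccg
U7: gacttcggtcggaaaacccct

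These RNAs come from many gene copies (GENCODE M21 annotation, build GRCm38). The U5 copies are Rnu5g at chr9:65201726-65201841 on the minus strand, Gm25099 at chr4:117189942-117190057 on the plus strand, Gm25313 at chr9:65196572-65196687 on the minus strand and Gm24871 at chr1:171503048-171503163 on the minus strand. The short U1 fragment is found in 16 copies, among them Rnu1a1 at chr11:87422867-87423030 on the plus strand, so its source copy cannot be told. U2 is counted on Rnu2-10 (chr11:101658238-101658428, plus strand), U12 on Rnu12 (chr15:83149644-83149794, plus strand) and U7 on Rnu7 (chr6:124741225-124741286, minus strand). U4 is counted on Gm24407 (chr5:115490254-115490394, plus strand), a copy named here as U4 by its sequence alone. The Rnu5g fragment contains a stem of 7 bases and its reverse complement around a loop of 4 bases, and the Gm25099 fragment one of 5 bases around 4.

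Among exact matches, snRNA fragments were fewer on average in SCI cortex, although the groups overlapped, and U5 made up almost all of the difference. They made up 1148, 1727 and 1265 RPM in SCI libraries 1, 2 and 3, against 2793, 2133 and 1385 in control libraries 1, 2 and 3. The means were 1379.9 ± 306 in SCI and 2103 ± 705 in control (SD, n = 3 each), and the exact two-sided permutation test gave p = 0.2, where 0.1 is the smallest value 3 against 3 can give. U5 accounted for 94.5% of the difference between the means. Without U5, the remaining snRNA reads came to 637, 852 and 726 RPM in SCI and 1043, 682 and 610.0 in control, which overlapped throughout (exact p = 0.9). These totals hold exact matches only. They leave out the U4 reads that run 3 bases past the annotated copies, whose mean was 49.1 RPM in SCI and 168 in control.

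**Figure D1:**
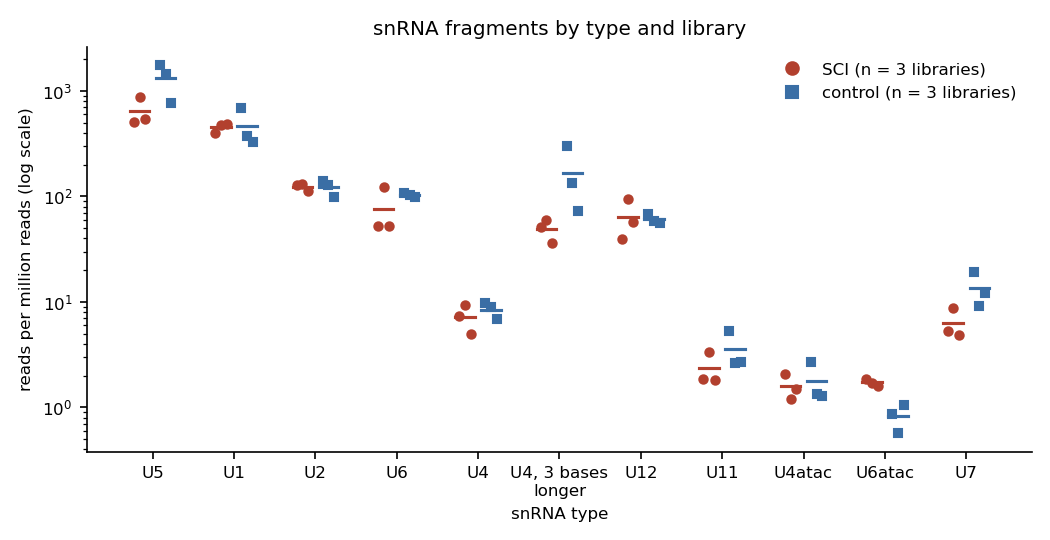
RPM (log scale) for each snRNA type, with SCI (circles) left of control (squares), 1 point per library and a bar at the mean of 3. U5 and U7 means are lower in SCI, U6atac is higher in each SCI library, and the U4 reads that run 3 bases past the annotated copies lie at 36.1 to 60.1 in SCI and 72.6 to 298 in control.

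U5 fragments, from the RNA that holds the exons in the splicing centre, were the most abundant type and the one with the smallest p in the fit. They came to 511, 875 and 539 RPM in SCI, against 1750.3, 1450.4 and 775 in control, so SCI library 2 lay above control library 3 and the other SCI libraries below all controls. Means were 642 ± 203 in SCI and 1325 ± 499.7 in control (SD, n = 3 each; exact p = 0.2). In the fit of edgeR's quasi-likelihood test to 3804 RNA features, with TMM scaling, U5 had a log2 fold change of -1.45 ± 0.33 (SE) and an adjusted p of 0.0151. U7 was also lower, at -1.43 ± 0.37 with an edgeR adjusted p of 0.0394, and these were the only 2 of 10 types that passed an adjusted p of 0.05, both lower in SCI, where 0.71% of all features passed in that direction and 0.999% in the other. At an unadjusted edgeR p under 0.05 there were 4 lower types, U5, U7, U6 and U11, and 0 higher ones, where 4.55% of all features were lower and 4.76% higher. The median log2 fold change of the 10 types was -0.54, against 0.00 for all features and -0.43 for 228 snoRNA features, of which 19 passed, all lower. For 469 miRNA hairpins it was -0.27, with 380 of them lower. Scaled by all reads in place of TMM, the medians were -0.21 for the 10 types, -0.10 for snoRNA features, 0.05 for hairpins and 0.31 for all features.

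The U5 call depended on single libraries and on the scaling. The edgeR log2 fold change and adjusted p were -1.37 and 0.0632 without SCI library 3, -1.30 and 0.1003 without control library 1, and -1.27 and 0.132 without control library 2. The call held without SCI library 1 (edgeR adjusted p = 0.0268), SCI library 2 (0.0327) and control library 3 (0.000338), with DESeq2 size factors (0.0296), with no filter (0.000321) and in DESeq2 (0.0120). Scaled by all reads in place of TMM, the edgeR log2 fold change of U5 was -1.05 ± 0.26 with an adjusted p of 0.0916, and 0 types passed, where 0.073% of all features passed lower and 0.779% higher. On the same counts limma-voom gave -1.31 ± 0.32 with an adjusted p of 0.0838. Scaling by all reads moved the median log2 fold change of all features to 0.31, and U5 lay 1.35 below that median, against 1.46 below it under TMM.

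**Figure D2:**
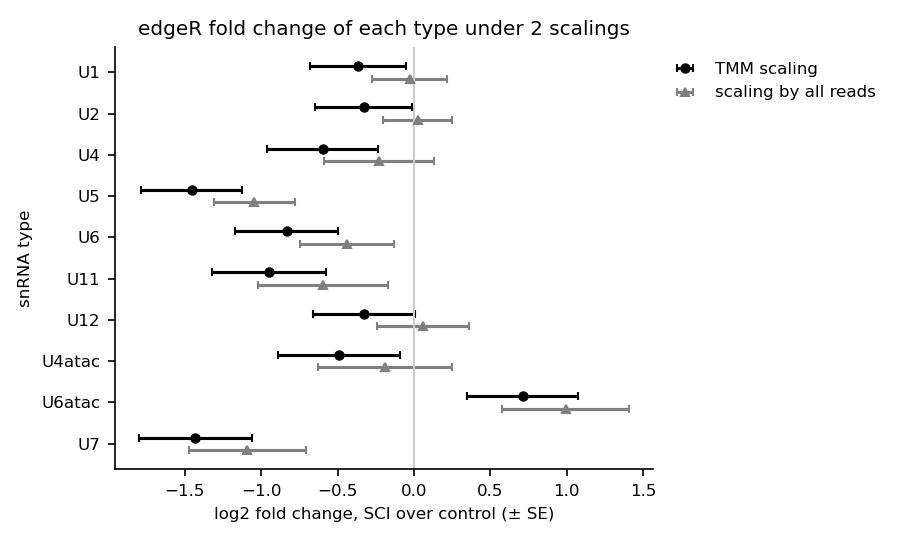
log2 fold change of each snRNA type (SCI over control) from edgeR with its SE, under TMM scaling (black circles) and under scaling by all reads (grey triangles). All types but U6atac lie left of 0 under TMM, U2 and U12 lie right of 0 under scaling by all reads, where the median of all features is 0.31, and U5 and U7 lie furthest left under both.

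Ratios within a library, which no scaling changes, also set U5 apart from U1, U2 and U12. There were 1.28, 1.83 and 1.10 U5 reads for each U1 read in SCI libraries 1, 2 and 3, against 2.54, 3.91 and 2.34 in control. For each U2 read there were 3.98, 6.66 and 4.79 U5 reads in SCI and 12.5, 11.4 and 7.83 in control. For each U12 read there were 12.8, 9.20 and 9.52 in SCI and 25.4, 24.6 and 13.9 in control. All 3 ratios were lower in each SCI library than in each control library (exact p = 0.1 each, the smallest possible). Against Y1, an RNA bound by the Ro protein and rich in short reads, U5 stood at 0.187, 0.267 and 0.216 in SCI and 0.501, 0.412 and 0.351 in control, again without overlap. The ratio of U5 to U6 was 9.64, 7.07 and 10.3 in SCI and 16.3, 14.1 and 7.76 in control, which overlapped.

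Of U5 reads, 97.97%, 99.3% and 99.3% in SCI and 99.6%, 99.9% and 99.4% in control lay in the part nearest the 3′ end when the RNA is cut into 3 equal parts. Ends at position 116 made up 88.5% of the type. The commonest 5′ starts were 90, with 26.8% of the type, 87, with 14.3%, and 91, with 12.2%, of which 90 and 91 lie in the Sm motif (88 to 94) and 87 is the base before it.

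**Figure D3:**
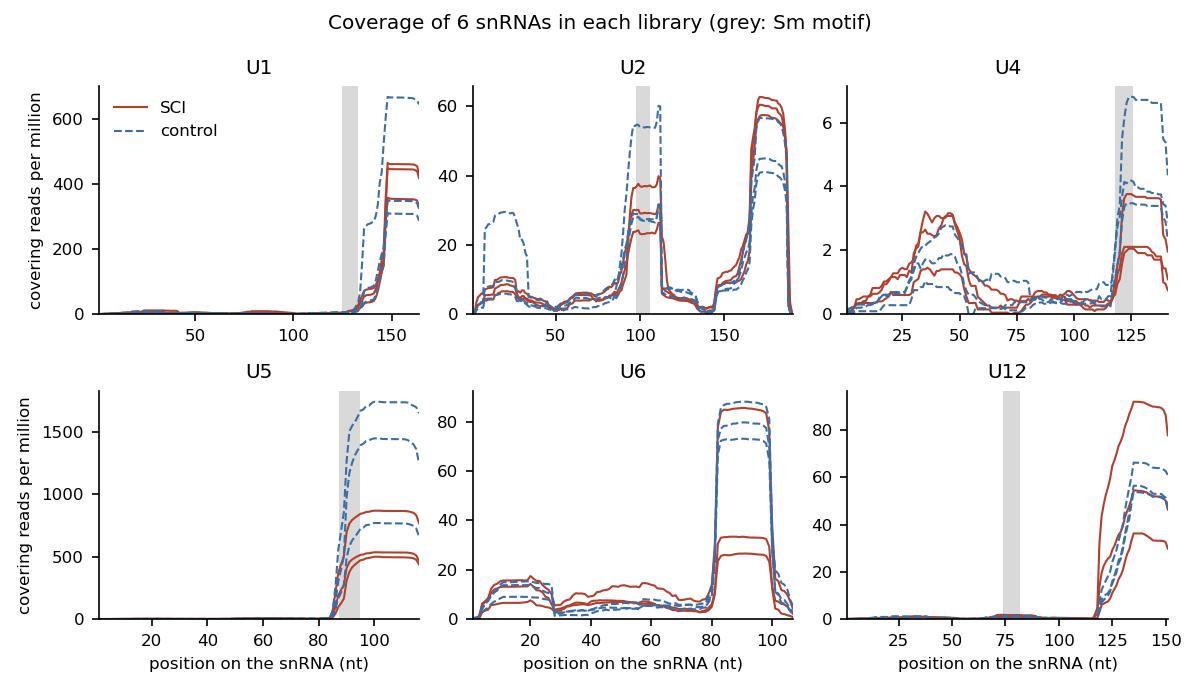
RPM of reads that cover each position of 6 snRNAs, 1 line per library (SCI solid, control dashed), with the Sm motif in grey. U1, U5 and U12 are covered almost only at the 3′ end, U2 also around its Sm motif up to position 112, U6 from about position 82 to 99, and the U4 curve stops at 141, the end of the annotated copy.

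Split by 5′ start, the U5 reads of the groups did not overlap from position 90 on. Reads that started at 95 to 100, past the Sm motif, came to 44.2, 40.1 and 31.6 RPM in SCI and 119.6, 93.6 and 79.1 in control. Reads that started at 89 to 94, within the motif, came to 327, 387 and 269 in SCI and 909.6, 943 and 474 in control. Both sets were lower in each SCI library than in each control library, at 0.397 and 0.422 times the control mean (exact p = 0.1 each). Reads that kept the whole motif, from a start at 82 to 88, came to 119.8, 431 and 228 in SCI and 689, 377 and 202 in control, which overlapped (exact p = 0.5). Of the 19 start positions from 82 to 100, 11 were lower in each SCI library, namely all from 90 to 100, and none of the 7 from 82 to 88 was. Over all features 2.5% were lower in each SCI library, and over all sequences tested 9.66%. These positions belong to the same RNA type and share their 3′ end, so they are not separate observations. The start sets were chosen after their values were seen. The ratio of reads starting at 89 to 100 to reads starting at 82 to 88 was 3.10, 0.991 and 1.32 in SCI and 1.49, 2.75 and 2.74 in control, which overlapped (exact p = 0.6), so a dependence on the start was not shown across libraries. SCI library 2, the highest of its group in the long set, also had the largest share of reads of 30 to 34 nt, and the part of that in the result was not tested.

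**Figure D4:**
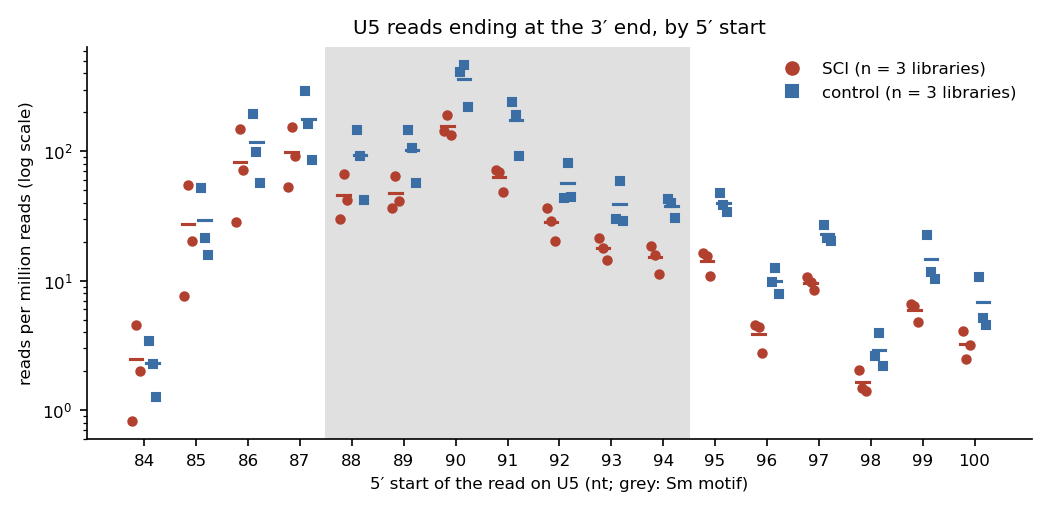
U5 reads that end at position 113 to 116, by 5′ start position (RPM, log scale), with SCI (circles) left of control (squares), 1 point per library and a bar at the mean of 3. From start 90 onward the SCI and control points separate at each position, and before it they overlap.

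The 4 copies that supply nearly all U5 fragments were each lower on average in SCI, though only Rnu5g without overlap. Rnu5g gave 208, 287 and 188 RPM in SCI and 686, 605 and 301 in control. Gm25099 gave 152, 334 and 204 in SCI and 636, 448 and 284 in control. Gm25313 gave 69.8, 119.5 and 68.3 in SCI and 258, 222 and 97.2 in control. The least shifted of these 4 was Gm24871, at 62.7, 115 and 64.3 in SCI and 153, 161 and 82.2 in control, 0.611 times the control mean against 0.429 for Rnu5g. Its share of U5 reads was 12.3%, 13.1% and 11.9% in SCI and 8.76%, 11.1% and 10.6% in control, higher in each SCI library (exact p = 0.1). Gm23287, a minor copy, took 0.428%, 0.928% and 1.51% of U5 reads in SCI and 0.132%, 0.234% and 0.332% in control, also without overlap.

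In the fit of single sequences, 257 of the 5394 snRNA sequences passed the filter on low counts, out of 723 with at least 10 reads over the 6 libraries. None of the 257 passed an edgeR adjusted p of 0.05, as none of all 31242 sequences did, the smallest adjusted p being 0.126. At an unadjusted edgeR p under 0.05 there were 81 lower and 8 higher snRNA sequences, where 7.12% of all sequences were lower and 9.79% higher at that level. DESeq2, run on the same counts, called 23, of which 21 were lower, where it called 1.95% of all sequences lower and 5.24% higher. Of the 115 U5 sequences tested, 102 had a negative and 13 a positive log2 fold change, with a median of -1.06, and 43 were lower in each SCI library and none higher. Over all 31242 sequences tested, 15126 had a negative and 16116 a positive log2 fold change, with a median of 0.02. Of them, 9.66% were lower in each SCI library and 13% higher. Sequences of the same snRNA type overlap one another in large part, so these counts are not of separate observations.

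The 3 snRNA sequences of smallest unadjusted p on the lower side were all short fragments of the U5 copy Gm25099 that start at the last base of the Sm motif or after it. The 22-mer from position 95 had 4.79, 4.74 and 3.11 RPM in SCI and 12.8, 13.0 and 11.9 in control, a log2 fold change of -1.66 ± 0.26 (SE; edgeR adjusted p = 0.126). The 23-mer from position 94 had 5.06, 4.83 and 3.72 in SCI and 11.99, 12.9 and 10.8 in control. The 20-mer from position 97 had 6.29, 6.15 and 5.37 in SCI and 17.6, 11.998 and 13.8 in control. These 3 were chosen for their small p, and no adjusted p passed. The most abundant U5 sequence, the Rnu5g 27-mer printed above, had 58.7, 71.2 and 48.2 in SCI and 158, 194 and 86.0 in control, with a log2 fold change of -1.38 ± 0.31 (SE; edgeR adjusted p = 0.128).

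U4 fragments, from the RNA that keeps U6 inactive, were lower in each SCI library once reads past the annotated end were counted. Exact matches were few, at 7.31, 9.36 and 4.92 RPM in SCI and 9.68, 8.88 and 6.82 in control, which overlapped (exact p = 0.6), and did not pass in the feature fit (log2 fold change -0.60 ± 0.37; edgeR adjusted p = 0.683). The annotated copies stop at position 141, and most U4 reads continued with the 3 bases capitalised in the U4 line above. Those bases complete a stem of 7 bases around a loop of 4 bases within the read, and whether they are encoded in the genome was not tested. Reads with the 3 bases came to 51.0, 60.1 and 36.1 RPM in SCI and 298, 134 and 72.6 in control, lower in each SCI library, at 0.292 times the control mean (exact p = 0.1). Without control library 1 they stood at 0.476 times the control mean, still lower in each SCI library.

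Among these reads the 24-mer separated the groups and a longer 26-mer did not. The 24-mer, from position 121, had 17.8, 15.3 and 9.79 RPM in SCI and 50.5, 46.0 and 27.7 in control, with a log2 fold change of -1.61 ± 0.33 (SE; edgeR unadjusted p = 0.0016, adjusted p = 0.126). The 26-mer from position 119, which keeps the whole Sm motif (119 to 125), had 6.97, 9.06 and 6.23 in SCI and 89.1, 19.3 and 8.46 in control. For the 26-mer, control library 1 stood far above all others and control library 3 lay below SCI library 2. Relative to U1, U4 reads with the 3 bases stood at 0.128, 0.126 and 0.0737 in SCI and 0.433, 0.360 and 0.219 in control, without overlap. Relative to U5 they stood at 0.0999, 0.0686 and 0.0669 in SCI and 0.170, 0.0922 and 0.0937 in control, which overlapped.

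U1 fragments, from the RNA that recognises the 5′ splice site, overlapped between the groups in total. U1 reads of 17 or 18 nt were higher in each SCI library, while the share of U1 reads of 27 to 34 nt overlapped. Mean U1 read length also overlapped, at 19.6, 20.2 and 19.9 nt in SCI and 23.6, 21.4 and 20.1 in control (exact p = 0.2). The type came to 398, 477 and 489.5 RPM in SCI and 688, 371 and 332 in control (exact p = 1), with a log2 fold change of -0.37 ± 0.31 under TMM and -0.03 ± 0.24 under scaling by all reads. At least 92.8% of U1 reads in each library lay in the part nearest the 3′ end, and reads ending at 164, the last base, were 88.3% of the type. The most used starts, 147 and 148, with 25.7% and 18.5% of the type, lie well past the Sm motif (126 to 132).

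The ratio of short to long U1 fragments separated the groups, by start sets chosen after their values were seen. Reads from position 147 or 148 to the 3′ end came to 211, 287 and 275 RPM in SCI and 143, 143 and 161 in control, higher in each SCI library, at 1.73 times the control mean (exact p = 0.1). Reads that started at 133 to 146 came to 137, 141 and 173 in SCI and 497, 195 and 140.1 in control, which overlapped. Control library 1 stood far above the other 5 libraries in long reads. The ratio of short to long reads was 1.54, 2.03 and 1.59 in SCI and 0.287, 0.736 and 1.15 in control, higher in each SCI library (exact p = 0.1). With long reads taken as starts at 130 to 140, their share of U1 reads with this end overlapped (exact p = 0.2). It was 7.26%, 14.7% and 10.6% in SCI and 41.4%, 22.7% and 11.4% in control.

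The 18-mer printed above was the most abundant snRNA sequence, with 13003 reads, and had the smallest unadjusted p on the higher side. It had 122, 153 and 152 RPM in SCI and 75.4, 76.1 and 85.2 in control, with a log2 fold change of 0.77 ± 0.16 (SE; edgeR unadjusted p = 0.00178, adjusted p = 0.126). The 29-mer had 7.11, 13.2 and 10.2 in SCI and 103, 31.6 and 9.68 in control. Of 37 U1 sequences tested, 23 had negative and 14 positive log2 fold changes, and 5 were lower in each SCI library and 6 higher, or 13.5% and 16.2%, against 9.66% and 13% of all sequences. A U1 17-mer from position 128, inside the Sm motif, had 0.547, 0.513 and 0.502 in SCI and 0.131, 0 and 0.163 in control, too few reads for a firm direction (edgeR adjusted p = 0.176). Because 17 bases was the shortest read kept, starts after 148 could not be seen.

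**Figure D5:**
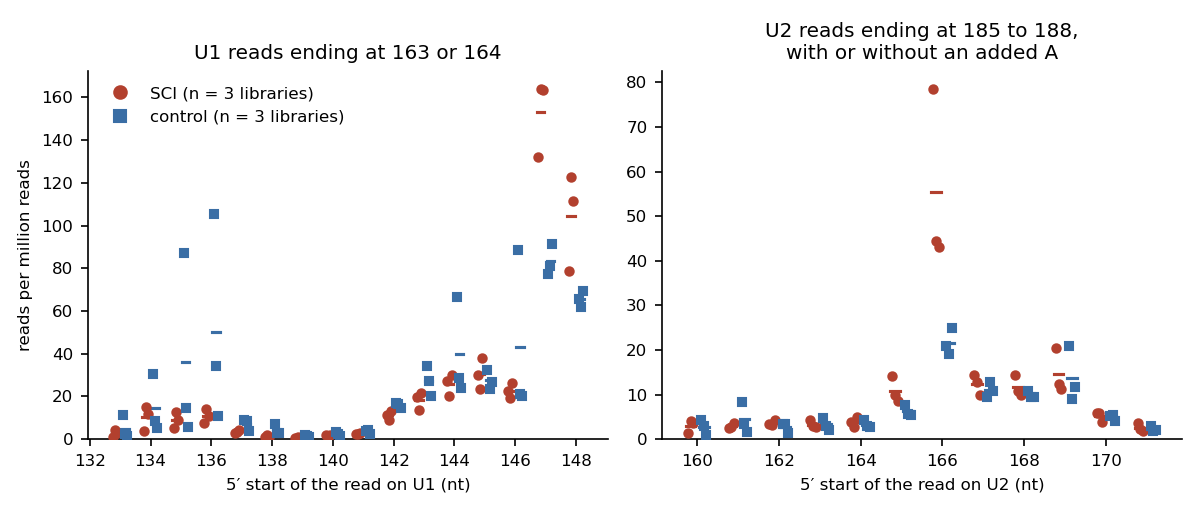
RPM of reads that reach the 3′ end of U1 (left) and U2 (right), by 5′ start, with SCI (circles) left of control (squares), 1 point per library and a bar at the mean of 3. U1 starts 147 and 148 and U2 start 166 are higher in each SCI library, and the high U1 points at 135, 136, 144 and 146 are control library 1.

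Nearly all U1 reads, 96.8% to 98.4% in SCI and 98.4% to 99.1% in control, fell in stretches that U1a and U1b genes share. Reads found only in U1a came to 9.43, 5.72 and 4.62 RPM in SCI and 3.57, 3.21 and 3.55 in control, higher in each SCI library (exact p = 0.1). Reads found only in U1b came to 0.889, 0.171 and 0.653 in SCI and 0.436, 0.0945 and 0.245 in control. No library had more than 13 reads found only in U1b.

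U2 fragments, from the RNA that pairs with the branch site, overlapped between the groups, at 128, 131 and 113 RPM in SCI and 140.1, 127 and 98.9 in control (exact p = 0.8). Its log2 fold change was -0.33 ± 0.32 under TMM and 0.02 ± 0.22 under scaling by all reads. Set against the median of all features, these values were -0.33 and -0.29. U2 was covered at 2 places: around the Sm motif (99 to 105), with ends at 112, and at the 3′ end, with ends at 187. Ends at 112 came to 16.8, 25.7 and 18.4 in SCI and 22.8, 51.96 and 25.2 in control.

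Among U2 reads, the 3′ fragments that start at 166, the most used start, were higher in each SCI library. The 22-mer had 8.82, 12.3 and 13.9 RPM in SCI and 8.11, 6.42 and 8.13 in control, with a log2 fold change of 0.54 ± 0.26 (SE; edgeR adjusted p = 0.353). The same fragment with an added adenosine was more abundant and had 57.8, 27.5 and 24.4 in SCI and 10.8, 10.9 and 14.1 in control, a log2 fold change of 1.54 ± 0.37 (SE; edgeR unadjusted p = 0.00437, adjusted p = 0.128). Both were higher in each SCI library, and SCI library 1 was highest for the adenosine form. In human cells, an adenosine added after transcription is known at the 3′ end of U2.

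Over all U2 reads with an adenosine after position 187, the values were 117, 66.2 and 60.5 in SCI and 60.2, 41.9 and 41.5 in control, higher in each SCI library (exact p = 0.1), with SCI library 3 only just above control library 1. Among reads whose last matched base was 187, those with the adenosine were 83.97%, 61.2% and 59.5% in SCI and 59.1%, 57.8% and 58.7% in control. SCI library 1 stood apart from the other 5. It also held 20.99 RPM ending at position 188, against 2.39 and 2.01 in the other SCI libraries and 1.43 to 2.09 in control.

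U6 fragments, from the RNA of the catalytic centre, came to 53.0, 123.8 and 52.4 RPM in SCI and 107.6, 102.5 and 99.8 in control, with SCI library 2 above all controls and the other SCI libraries below them (exact p = 0.4). The log2 fold change was -0.83 ± 0.34 (SE; edgeR adjusted p = 0.348) under TMM. Of U6 reads, 85.3%, 87.5% and 81.1% in SCI and 94.3%, 94.01% and 92.2% in control were also found in transcripts of other biotypes. The U6 reads found in no other biotype went the other way, at 7.79, 15.4 and 9.89 RPM in SCI and 6.10, 6.14 and 7.76 in control, higher in each SCI library though SCI library 1 lay only just above control library 3 (exact p = 0.1). The commonest fragment, an 18-mer from position 82 to 99, had 14.9, 32.1 and 7.78 in SCI and 40.6, 34.8 and 30.6 in control. It lies inside the RNA, with 8 bases between its end and the end of Rnu6, and is found in 134 annotated copies. The part of U6 nearest the 3′ end held 64.1%, 70.1% and 51.9% of its reads in SCI and 83.1%, 78.4% and 74.6% in control, lower in each SCI library (exact p = 0.1). Ends at position 27, the third most used, came to 1.44, 4.83 and 2.26 in SCI and 5.06, 12.4 and 7.88 in control, also without overlap. An 18-mer near the 5′ end of U6, from position 4, had 1.09, 0.897 and 1.20 in SCI and 0.218, 0.189 and 0.368 in control, 77 reads in all (log2 fold change 1.87 ± 0.40, SE; edgeR adjusted p = 0.126).

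The minor types were dominated by U12, at 39.8, 95.1 and 56.6 RPM in SCI and 68.9, 58.95 and 55.8 in control (exact p = 0.9). U12 pairs with the branch site of the rare introns, as U2 does in the common ones. Its 33-mer had 1.16, 23.2 and 9.29 in SCI and 4.88, 2.27 and 2.45 in control, the high value again being SCI library 2. U11, which reads the 5′ splice site of those introns, had 1.85, 3.37 and 1.81 in SCI and 5.28, 2.65 and 2.70 in control (log2 fold change -0.95 ± 0.37, SE; edgeR adjusted p = 0.326).

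U4atac had 2.05, 1.20 and 1.51 RPM in SCI and 2.70, 1.32 and 1.27 in control. U6atac, the counterpart of U6, was the only type higher in each SCI library, at 1.85, 1.71 and 1.61 in SCI and 0.872, 0.567 and 1.06 in control, from 27, 40 and 32 reads in SCI and 20, 6 and 26 in control. Its log2 fold change was 0.71 ± 0.36 (SE; edgeR adjusted p = 0.571), and among all features 15.4% were higher in each SCI library and 2.5% lower. No direction is read from U6atac at this depth, where the counting interval of a library spans up to 86.2% of its value on either side.

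U7 had 5.33, 8.71 and 4.87 RPM in SCI and 19.1, 9.16 and 12.1 in control, lower in each SCI library (exact p = 0.1), and passed in the feature fit as given above. Reads that reach its 3′ end came to 3.69, 6.28 and 3.77 in SCI and 16.3, 7.84 and 8.58 in control, also without overlap. The 21-mer printed above, the most abundant U7 sequence, overlapped, at 0.752, 1.15 and 0.954 in SCI and 1.70, 0.472 and 0.980 in control. Its log2 fold change was -0.27 ± 0.48 (SE), with an edgeR adjusted p of 0.844. The edgeR adjusted p of U7 was 0.254 without SCI library 3, 0.276 without control library 1, 0.0511 without control library 2, 0.0611 without SCI library 1, 0.0914 without SCI library 2 and 0.291 under scaling by all reads, with log2 fold changes between -1.60 and -1.09 in these and without control library 3.

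Of a list of other stable RNAs, none of the 9 tested passed in the feature fit, although 19 of the 228 snoRNA features, or 8.33%, were called lower and 2 of the 18 misc_RNA features higher. The log2 fold change was 0.26 ± 0.34 (SE) for 7SK, which restrains transcription elongation, -0.25 ± 0.36 for 7SL of the signal recognition particle and -0.78 ± 0.39 for RMRP, an RNase MRP subunit. It was -0.81 ± 0.45 for RPPH1 of RNase P, -0.06 ± 0.36 for U8, -0.50 ± 0.29 for Y1, -0.08 ± 0.30 for Y3 and -0.26 ± 0.36 for vault RNA, with edgeR adjusted p from 0.557 to 0.988. U3, the snoRNA of early ribosome assembly, gave 314, 319 and 335 RPM in SCI and 249.9, 349 and 323 in control, from 2 features that did not pass, and 5S rRNA copies gave 2.19, 7.01 and 7.43 in SCI and 2.18, 2.36 and 3.19 in control. Mitochondrial tRNA fragments were 0.771%, 1.02% and 0.758% of reads in SCI and 0.592%, 0.367% and 0.627% in control, higher in each SCI library (exact p = 0.1). rRNA, scaRNA and misc_RNA shares overlapped between the groups.

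By length, snRNA fragments of 17 or 18 nt were 26.6%, 23.0% and 27.3% of snRNA reads in SCI and 10.1%, 12.5% and 19.7% in control, higher in each SCI library (exact p = 0.1). U1 alone gave 230.3, 298 and 289 RPM of this length in SCI and 153, 154 and 171 in control, also higher in each SCI library. In RPM of this length, U5, U12 and U7 went the other way and were lower in each SCI library. U5 had 16.4, 11.7 and 10.3 in SCI and 37.3, 24.5 and 18.8 in control, and U2, U4 and U6 overlapped. Fragments of 30 to 34 nt were 8.50%, 26.2% and 18.1% in SCI and 25.0%, 13.6% and 11.8% in control, which overlapped (exact p = 0.9). By position, 88.5%, 92.4% and 92.52% of snRNA reads in SCI and 95.5%, 94.3% and 92.55% in control lay in the part of their RNA nearest the 3′ end. The SCI values were all lower (exact p = 0.1), though SCI library 3 and control library 3 were almost equal. The groups overlapped (exact p = 0.2 each) in reads found in named genes, in reads of 18 to 26 nt and when reads with added 3′ bases were included. By type, this share was lower in each SCI library for U4, U5 and U6 and overlapped for U1, U12 and the rarer types. For U2 it was higher in each SCI library, at 52.0%, 57.0% and 61.8% in SCI and 45.5%, 42.5% and 48.5% in control. U1 made up 34.6%, 27.6% and 38.7% of snRNA reads in SCI and 24.6%, 17.4% and 23.9% in control, and U5 44.5%, 50.7% and 42.6% in SCI and 62.7%, 68.0% and 55.9% in control, both without overlap. These shares are parts of the same total and not separate results. In RPM, U1 overlapped, with means of 455 in SCI and 464 in control.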

How the data were processed

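The authors deposited, per sample, each distinct small RNA read of 17 to 34 nt with its count of reads, not normalized; the submitters' processing notes name GRCm38, and the steps of read trimming are not given in the sources used here. Reads were matched exactly and sense to GENCODE M21 transcripts (Python 3.11.15, numpy 2.4.6). A read in several classes went, in order, to miRNA hairpins (Mir genes), rRNA, mitochondrial tRNA, snoRNA, scaRNA and then snRNA. 12.7% of the snRNA reads also lie in transcripts of other biotypes. snRNA copies were typed by local alignment (biopython 1.88; match 2, mismatch -1, gap -3 and -1, score at least 60) to a copy of each type, on which positions are counted from 1. U4, U4atac and U6atac copies were recognised by sequence. Reads with 1 to 3 added 3′ bases were kept apart.

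Values are RPM, reads per 1000000 reads of the library. Groups of 3 were compared by exact two-sided permutation tests of means. Tables of 3804 features and 31242 sequences, kept by filterByExpr with a minimum count of 10 (sequences also with 10 reads in all), were fitted with edgeR 4.0.16 (quasi-likelihood, TMM) and Benjamini-Hochberg adjustment at 0.05. DESeq2 1.42.0, limma 3.58.1, DESeq2 size factors, scaling by all reads, no filter, a replicate block and leaving out each library were alternatives. The matching and the fits were checked on simulated or directly searched data. Wilson intervals (95%) of a library's value reached at most 2.27% of the value to either side for U5, 3.13% for U1 and 20.3% for U4; they cover counting error only, since reads are not independent molecules.

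The members, lists and tests were chosen with earlier results of these data known. Sequences were named by rule: the most abundant of each type with at least 1000 reads, and the 3 of smallest p in each direction. For main types the 3 most used starts and ends were named. The added-base reads, the U1 and U5 start sets and the ratios were chosen after their values were seen. U6 sequences are not printed. The labels say that samples were collected individually, so p-values measure the spread between these animals.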

Additional observations from a re-analysis of the deposited data

How the results depend on the processing

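Each SCI minus control difference in RPM was recomputed under the alternatives. None of the shares could pass 0.05 in an exact test of 3 against 3, so only directions are compared. The directions for all snRNA, U5 and the 3′-nearest share held in every alternative run, though the 3′-nearest share overlapped between the groups in 3 of them, with leave-one-out ranges of -1083 to -379 for snRNA, -959 to -471 for U5 and -3.78 to -1.67 percentage points for the 3′-nearest share; those for U7 and for U5 starts at 89 to 94 held as well. U1 (main difference -8.90) reversed to 19.1 scaled to hairpin reads and 23.6 in reads of 18 to 26 nt, with a leave-one-out range of -75.0 to 103 (19.7 without SCI library 1, 103 without control library 1). U2 (1.98) reversed to -115 with each sequence counted once and -72.1 scaled to reads outside hairpins, and ranged from -9.61 to 10.99 (-0.0999 without SCI library 1, -1.70 without SCI library 2). U4 (-1.26) reversed to 0.0573 and U6 (-26.9) to 2.004 in reads of 27 to 34 nt, and U6 to 4.37 in reads found in no other biotype. The minor types (2.14) reversed to -66.9 counted once, -43.9 outside hairpins and -11.2 in reads of 18 to 26 nt, ranging from -13.8 to 14.1 (-1.13 without control library 3); U12 did so at -40.7, -37.9 and -11.6, ranging from -13.0 to 14.7 (-0.0805 without control library 3). U4atac reversed to 0.0803 in reads of 18 to 26 nt and ranged from -0.428 to 0.290 (0.0145 without SCI library 2). The 30 to 34 nt share (0.817 percentage points) reversed to -0.198 in named genes and ranged from -3.50 to 5.37 (-0.800 without control library 2, -1.68 without control library 3). Short U1 reads reversed to -3.65 counted once. The cause was not tested in any of these.

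In the feature fit 2 types passed. With total scaling and with limma-voom 0 passed, with the replicate block 1 (U5), and without single libraries 0 to 2; under total scaling U2 and U12 reversed to 0.0233 and 0.0613 (log2), but stayed 0.29 and 0.25 below the median of all features, which that scaling moved to 0.31. All 65 features called became 35 with total scaling, 170 with no filter, 14 with limma-voom and 37 to 142 without single libraries. In the sequence fit 0 snRNA sequences passed, against 23 with DESeq2 and 0 to 11 without single libraries. DESeq2 called 23 of 257 snRNA sequences and 2246 of all 31242. Without SCI library 1, edgeR called 11 of 305 snRNA sequences, 7 of them lower, and 3544 of all 38971. Replicate numbers are shared between groups, and the main tests did not treat the libraries as paired. The correlations of the deviations of libraries with the same number were -0.0088, -0.230 and -0.0011. With 3 libraries per group these cannot decide whether the numbers pair the animals. For shares, the block leaves the difference as it is and its exact sign flips cannot give p below 0.25. In the edgeR fit with the block the U7 call was lost, at an adjusted p of 0.0852. U4 3′ ends and fragments shorter than 17 nt limit what can be seen, and U4atac and U6atac rest on few reads.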
